A study of Mus musculus with 219 samples.

Results

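Of the 32285 genes in the count tables, 5 were taken up here by their symbols: Carm1, Prdm14, Sox21, Neat1 and Nono, which belong to a pathway that has been linked to an early bias between the blastomeres of the mouse embryo. All 5 were rows of both tables, the table of single blastomeres and the table of single blastocysts. The study asked whether the place at which the sperm enters the oocyte changes what the first 2 blastomeres, called sisters, become. Oocytes of B6C3F1 mice received a CD1 sperm by intracytoplasmic sperm injection (ICSI) opposite the meiotic spindle (contralateral), beside it (ipsilateral, "isolateral" in the labels) or between both places (equatorial), and the embryos were cultured in KSOM(aa) medium. Some were bisected at the 2-cell stage and each sister was lysed, others were bisected and each sister was cultured alone to a twin blastocyst, and others were left undivided and grown to an intact blastocyst. A given embryo contributed to 1 stage only, so values at the 2 stages come from different embryos, and the groups share the cross, the medium and the injection itself, without an uninjected control. Comparisons used 55 sister pairs (21 contralateral, 21 ipsilateral and 13 equatorial, from 110 blastomeres), 19 twin pairs (6, 7 and 6) and 31 intact blastocysts (11, 8 and 12). The embryo was the replicate in comparisons between groups and over embryos. Tests of the 2 sisters or twins of 1 embryo rest on the counts of that pair and have no replicate.

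CARM1 is an arginine methyltransferase that acts with transcriptional coactivators and methylates histone H3, and embryonic cells with more of this mark have been described as more likely to contribute to the inner cell mass. PRDM14 is a zinc finger regulator of pluripotency that has been described to act with CARM1 in early blastomeres. SOX21 is a transcription factor of the SOX family that has been described as a target of the pluripotency factors OCT4 and SOX2 and as a repressor of Cdx2, the trophectoderm regulator. Neat1 is a long noncoding RNA, and its long form is the scaffold of paraspeckles, nuclear bodies that hold the RNA-binding protein NONO and in which CARM1 has been found. In this view Neat1 and Nono stand upstream of Carm1, Prdm14 beside it, and Sox21 downstream.

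In GRCm38, the build of the deposited counts, Carm1 lay on the plus strand at chr9:21546894-21592623 and had 4852 exonic bases, of which 1025 (21.1%) overlap exons of Yipf2 on the opposite strand. Prdm14 lay on the minus strand at chr1:13113457-13127163 with 2564 exonic bases. Sox21 is a gene of a single exon on the minus strand at chr14:118233232-118237030, and 713 of its 3799 bases (18.8%) overlap the noncoding gene Gm4675. Neat1 lay on the minus strand at chr19:5824708-5845478, and its 4 annotated transcripts run from 711 to 20771 bases. Its gene count does not tell the short form from the long form, and the part of each was not tested. Nono lay on the plus strand at chrX:101429318-101448591. The libraries do not mark strand, so reads in the stretches shared with Yipf2 or Gm4675 cannot be assigned to either gene, and their part in the Carm1 and Sox21 counts was not tested.

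The RefSeq table of promoters on GRCm38.p6, from 250 bases before to 50 after a gene's start, matched 2 of the 5 members. These were Nono and Sox21, and their promoters are shown because the other members had no entry. They are also the members with the highest and the lowest level at the 2-cell stage. The sequences run 5′ to 3′ on the gene's own strand, with CCAAT in capitals on either strand. The windows are Nono at chrX:101429401-101429700, plus strand, and Sox21 at chr14:118236981-118237280, minus strand.
Nono: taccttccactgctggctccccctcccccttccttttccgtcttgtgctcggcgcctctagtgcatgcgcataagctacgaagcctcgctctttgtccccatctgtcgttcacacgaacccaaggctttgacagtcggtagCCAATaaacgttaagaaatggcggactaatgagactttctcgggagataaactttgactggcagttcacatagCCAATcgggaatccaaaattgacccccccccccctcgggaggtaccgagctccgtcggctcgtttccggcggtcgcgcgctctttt
Sox21: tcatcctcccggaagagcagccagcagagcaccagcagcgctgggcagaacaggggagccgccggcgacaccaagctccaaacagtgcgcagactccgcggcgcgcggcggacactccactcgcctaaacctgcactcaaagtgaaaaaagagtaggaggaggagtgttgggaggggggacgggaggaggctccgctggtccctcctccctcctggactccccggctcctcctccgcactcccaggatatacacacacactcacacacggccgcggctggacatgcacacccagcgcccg
The Nono window held CCAAT at 2 places, the nearer of them 36 bases before the RefSeq start, and neither TATAAA nor GGGCGG. This window lies wholly within the Nono gene as annotated above, which begins at chrX:101429318, so the RefSeq start lies downstream of that one. The Sox21 window held none of these 3 motifs. Each motif was searched on both strands, and CCAAT was held by 37.4%, TATAAA by 13.6% and GGGCGG by 35.7% of all 32851 promoters. Both windows were rich in CpG, with 23 CpG in Nono and 22 in Sox21 against a median of 7, and their GC content was 55.7% and 65.7% against a median of 52.7%.

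The 110 blastomere libraries held 360474 to 2100561 counts and 9973 to 13228 detected genes, the 38 twin libraries 713410 to 2161062 counts and the 31 intact libraries 234099 to 1254428 counts. The equatorial blastomeres were shallower (median 1108741 counts) than the contralateral (1297280) and ipsilateral ones (1530273). The summed level of the 2-cell and oocyte markers Gdf9, Bmp15, Dppa3, Zscan4d and Zfp352 was 2661 to 5777 CPM (counts scaled to a common library total) in every blastomere. The trophectoderm markers Cdx2, Gata3, Krt8 and Krt18 summed to 2247 to 5049 CPM in the blastocysts, against a median of 40.1 in blastomeres. Cumulus cell markers summed to at most 93.2 CPM in blastomeres and 116.2 in blastocysts.

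Nono was the only member counted in nearly every blastomere, in all but 1 of 110. Neat1 was counted in 80, Carm1 in 69 (62.7%), Prdm14 in 19 (17.3%) and Sox21 in 2, with 2 and 4 counts. A count of 0 in a single blastomere allows a level of up to 1.43 to 8.32 CPM, set at 3 counts of the library's total, so that a Carm1 or Prdm14 transcript of low level was not detectable in a single library. Where Carm1 was counted, 12 blastomeres had 1 to 3 counts and 57 had 4 or more, with a maximum of 82. By site, Carm1 was counted in 25 of 42 contralateral, 32 of 42 ipsilateral and 12 of 26 equatorial blastomeres. The order of these shares is that of the median depth of the libraries by site, and the part of depth was not tested.

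With both sisters added, Carm1 had 5.74 ± 5.36 CPM (SD, n = 55 embryos), with a lowest value of 0, a median of 4.59 and a highest value of 20.6, and was counted in 45 of 55 embryos. Prdm14 had 1.86 ± 4.17 CPM with a median of 0 and a highest value of 16.6, and was counted in 18 of 55. Sox21 had 6 counts over these 55 embryos, in 2 of them. The 21 contralateral embryos had no Sox21 count, which allows up to 0.0555 CPM over their pooled libraries. Neat1 had 18 ± 18.2 CPM (median 12.4, highest 75.8) and was counted in 49 of 55 embryos. Nono had 99.1 ± 35.6 CPM, from 9.19 over a median of 101.9 to 169, and was counted in all 55.

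Levels of different genes can be compared only per length. On the TPM scale, which divides counts by exonic length and then scales each library to a common total, Nono stood highest at the 2-cell stage with 73.9 ± 25.9 (SD, n = 55). It was followed by Carm1 with 3.82 ± 3.62, Neat1 with 2.84 ± 2.86 and Prdm14 with 2.41 ± 5.29, which did not differ beyond their spread over embryos. Sox21 came last with 0.03 ± 0.18. For Neat1 the length is that of the long form, so a library with mainly the short form would be understated on this scale. In twin blastocysts the order was Nono (221 ± 28.5 TPM, n = 19), then Neat1 (10.6 ± 5.11), Sox21 (10.3 ± 3.84), Prdm14 (9.56 ± 7.09) and Carm1 (5.21 ± 2.58), the last 4 within their spread. In intact blastocysts it was Nono (234 ± 58.3 TPM, n = 31), Neat1 (46 ± 45.5), Sox21 (9.08 ± 9.46), Prdm14 (2.27 ± 4.83) and Carm1 (1.5 ± 2.09).

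**Figure D1:**
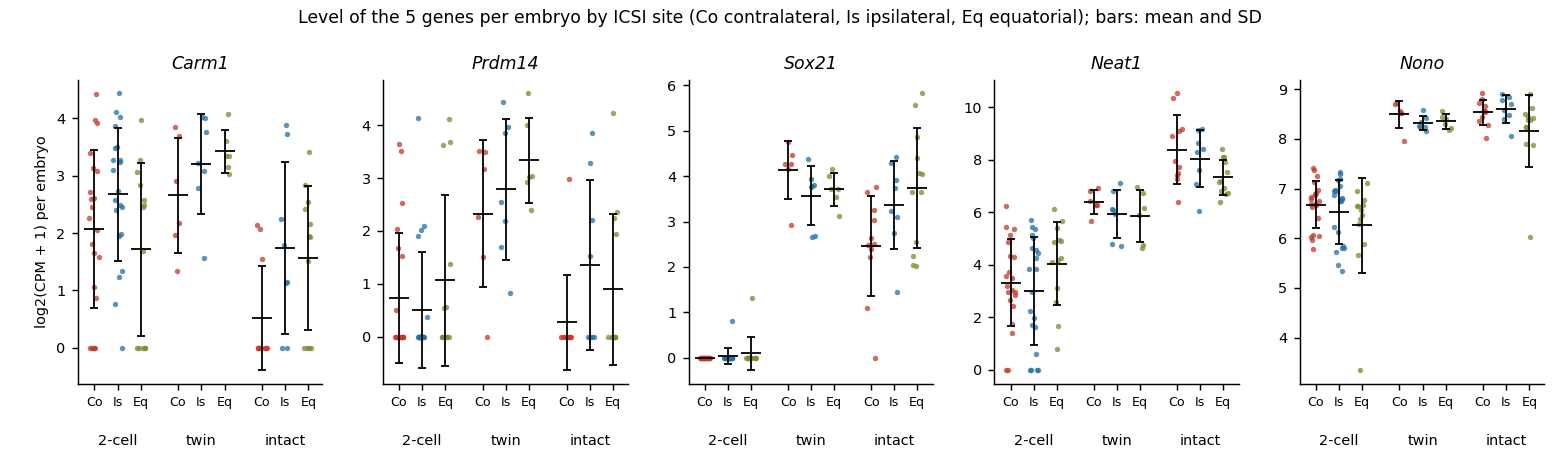
Level of each member per embryo as log2(CPM + 1), with both sisters or both twins added, by ICSI site (Co contralateral, Is ipsilateral, Eq equatorial) in 2-cell embryos, twin and intact blastocysts. Points are embryos, and bars give the mean and SD of each group on the log2 scale. Sox21 lies at 0 in 53 of 55 2-cell embryos and is counted in 30 of 31 intact blastocysts, and Neat1 lies highest in intact blastocysts.

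The question of the pathway is whether sisters differ. For each embryo, the counts of a gene in the 2 sisters were compared with the split that their library sizes alone would give, by a 2-sided exact binomial test with Benjamini-Hochberg adjustment over all genes and embryos. Reads of these libraries are not independent molecules, so counting noise is the least noise possible, and intervals and floors cover counting error only. Of 767893 tests over all genes and embryos, 52.2% passed, so a call is a common event here. Carm1 passed in 24 of the 45 embryos with counts (53.3%), Prdm14 in 11 of 18 (61.1%), Neat1 in 34 of 49 (69.4%) and Nono in 36 of 55 (65.5%), and Sox21 in 0 of 2. Of the tests of genes of like level, 51.9%, 42.1%, 57.5% and 57.1% passed in the same order. The share of Carm1 lay close to this background and those of the other 3 above theirs. How widely the share varies over like genes was not computed, so these distances are not shown to be particular to the members. With every library thinned to 360474 counts, the calls fell to 2 of 40 embryos for Carm1 (5.0%, against 14.4% for genes of like level), 3 of 13 for Prdm14 (23.1% against 9.15%), 11 of 48 for Neat1 (22.9% against 21.7%) and 16 of 55 for Nono (29.1% against 25.6%).

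The dispersion ratio is the chi-square of the sister split averaged over embryos, and equals 1 where counting noise alone acts. It was 10.4 for Carm1, against a median of 12.1 for genes of like level, and 33% of those genes lay below it. For Nono it was 15.5 against 17.3 (34.3% below). For Prdm14 it was 13 against 9.75 (77.6% below), and for Neat1 20.7 against 15.5 (89.4% below). The 4 members with enough counts thus differed between sisters by more than counting noise, as did most genes. On this ratio Carm1 and Nono lay below the median gene of their level, while the share of embryos called lay above that of like genes for Nono, so the measures differ in direction there. Among the pluripotency factors, Sox2 had a ratio of 30.4, above 99.1% of the genes of its level, and Nanog one of 2.40, above 1.92%. Pou5f1 lay in the middle, with a ratio of 16.6, above 49.8% of the genes of its level.

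Detection gave the same picture in single counts. Carm1 was counted in both sisters of 24 embryos, in 1 sister only of 21 and in neither of 10, where counting noise would leave 1.63 embryos with a single positive sister. For Prdm14 the numbers were 1, 17 and 37, with 5.06 single positives from counting noise, so Prdm14 was nearly always found in 1 sister alone. Some of these embryos held only 1 Prdm14 count, which can lie in 1 sister alone. Detection in 1 sister was not compared with genes of like level, so it is not shown to be particular to these members. For Neat1 they were 31, 18 and 6, with 1.32 from counting noise. Nono was counted in both sisters of 54 of 55 embryos.

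Single pairs show the range. In 1 ipsilateral embryo Carm1 had 0 counts in 1 sister and 82 in the other (43.7 CPM), and in another Prdm14 had 49 counts (33.2 CPM) and 0. An equatorial embryo had Neat1 at 2.44 and 119.4 CPM, and a contralateral one at 98.9 and 48.6 CPM. Nono had 0 and 24 counts in 1 equatorial embryo, 145 and 180 CPM in a contralateral one and 205 and 78.1 CPM in an ipsilateral one. The correlation of sisters within an embryo, as an intraclass coefficient on log2(CPM + 1) over 55 pairs, was 0.02 for Carm1, −0.08 for Prdm14, 0.27 for Neat1 and 0.42 for Nono. The mean of each group of site and plate was subtracted first, so the coefficients do not hold a shared site or plate. They are given as a description.

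**Figure D2:**
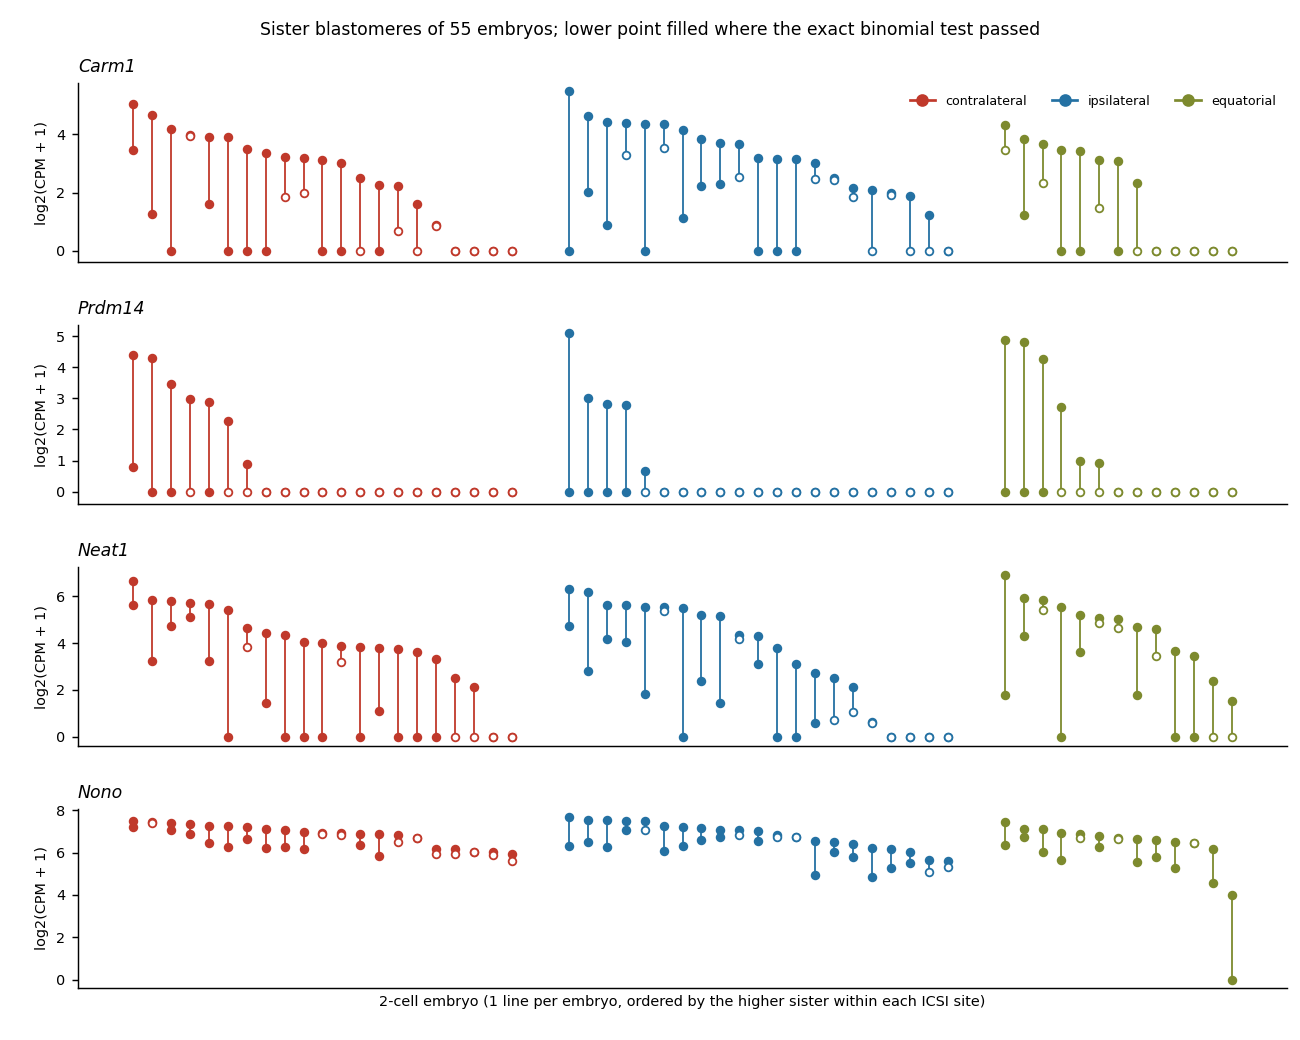
Level of Carm1, Prdm14, Neat1 and Nono, as log2(CPM + 1), in both sisters of 55 2-cell embryos. Each vertical line joins the sisters of 1 embryo, colours give the ICSI site, embryos are ordered by the higher sister, and the lower point is filled where the exact binomial test passed. Lines that reach 0 mark embryos with counts in 1 sister only, 21 for Carm1 and 17 for Prdm14, while Nono has 1 such embryo.

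**Figure D3:**
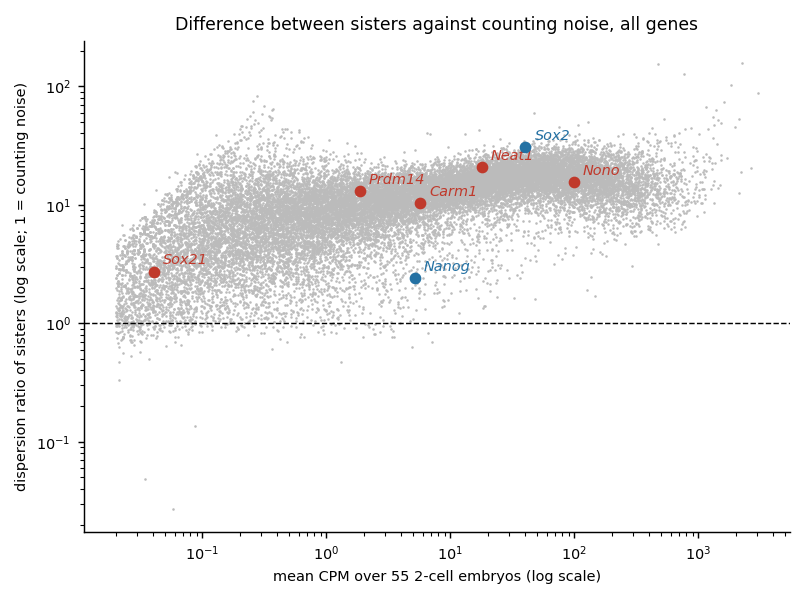
Dispersion ratio of the sister split against the mean CPM over 55 2-cell embryos for all genes (grey points, log axes), with the 5 members in red and Sox2 and Nanog in blue. The dashed line at 1 is counting noise. The members lie within the cloud of genes, Carm1 at 10.4 and Neat1 at 20.7, and Sox2 and Nanog lie near its upper and lower edge.

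By site of ICSI, the absolute log2 ratio of the sisters was compared with permutation tests for 5 members and 3 pairs of sites, 15 tests in all. None passed after adjustment. For Nono the mean absolute ratio was 0.42 ± 0.33 (SD, n = 21) in contralateral, 0.70 ± 0.46 (n = 21) in ipsilateral and 1.04 ± 1.03 (n = 13) in equatorial embryos. Contralateral sisters were thus closer in Nono by 0.61 than equatorial ones (permutation p = 0.00509, adjusted p = 0.0763) and by 0.28 than ipsilateral ones (permutation p = 0.0318, adjusted p = 0.239). With all pairs kept, whatever their number of genes, the differences were 0.59 and 0.54 with adjusted p = 0.0291 and 0.0336 in the permutation test. The pairs added in this way had failed the minimum of detected genes. In 1 of them, an ipsilateral pair, Nono had 0 counts in a library of 199797 counts and 75 in the other sister. The part of this pair in these values was not tested. Leaving out each embryo in turn, the contralateral to equatorial difference ran from 0.36 to 0.69, the lower bound being that without the equatorial embryo with 0 and 24 counts.

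For Carm1 the mean absolute log2 ratio was 1.85 ± 1.45 after contralateral, 1.94 ± 1.51 after ipsilateral and 1.44 ± 1.40 after equatorial ICSI, and the 3 permutation tests had adjusted p of 0.687 to 0.908. For Neat1 it was 2.47 ± 1.57, 1.77 ± 1.62 and 2.31 ± 1.74, with adjusted p of 0.659 to 0.898. Embryos without a count of the gene in either sister entered these means with a ratio of 0. For Carm1 these were 4 contralateral, 1 ipsilateral and 5 equatorial embryos, and for Neat1 2, 4 and 0. The means thus mix detection with the distance between sisters, and their order over embryos with counts alone was not tested. The dispersion ratio by site ran from 7.02 (equatorial) to 12.7 (ipsilateral) for Carm1, from 17 (equatorial) to 25.0 (ipsilateral) for Neat1 and from 9.0 (contralateral) to 22.4 (ipsilateral) for Nono. Equatorial embryos had 14.8 for Nono, so this ratio was highest in ipsilateral embryos, where the mean absolute log2 ratio was highest in equatorial ones. The dispersion ratio grows with the number of counts as well as with the distance between sisters. Ipsilateral blastomeres had the deepest libraries (median 1530273 counts) and equatorial ones the shallowest (1108741). The part of depth in this order was not tested.

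Whether the sister with more of 1 member also had more of another was asked for 6 pairs of members, since Sox21 had too few counts. Where Carm1 and Prdm14 both differed between the sisters, the same sister had more of both in 11 embryos and the opposite sister in 2. The other 42 embryos could not be compared, as at least 1 of the genes had no count in either sister. Carm1 had none in 10 embryos and Prdm14 none in 37. In the correlations a gene without counts entered with a log2 ratio of 0. Over 55 embryos the Pearson correlation of the log2 ratios was 0.28 (permutation p = 0.0332, adjusted p = 0.199) and the Spearman correlation 0.35 (permutation p = 0.00888, adjusted p = 0.0533), neither past the threshold. Without the 2 embryos farthest from the median r was 0.31. Within site r was 0.62 for contralateral (n = 21), −0.05 for ipsilateral (n = 21) and 0.27 for equatorial embryos (n = 13). Carm1 and Neat1 were higher in the same sister in 21 embryos and in opposite sisters in 19 (r = 0.11), Carm1 and Nono in 24 and 21 (r = 0.05), and Neat1 and Nono in 30 and 19 (r = 0.18), with adjusted p of 0.397 to 0.621 in permutation tests of r.

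Among the genes with at least 5 CPM on average in 2-cell embryos (11191 genes), those most like Carm1 over 55 embryos, by Spearman correlation after subtraction of site and plate means, were Egf (0.56), Taf15 (0.47) and Iqub (0.46). For Neat1 they were Klf9 (0.59), Mplkip (0.57) and Smim4 (0.56), and for Nono Med14 (0.53), Slc10a3 (0.52) and Hadhb (0.51). Depth was not subtracted, and the values are a description.

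The level of the members after the 3 sites of ICSI was compared on counts added over both sisters, with edgeR's quasi-likelihood test on 13141 genes with a plate term, and p-values were adjusted over all of them. Carm1, Neat1 and Nono were tested, and Prdm14 and Sox21 fell below the filter on low counts. None of the 3 passed in any comparison, while 13.2% of genes passed for contralateral against equatorial embryos, 6.65% for ipsilateral against equatorial and 0% for contralateral against ipsilateral. In the last, 555 genes had an unadjusted p under 0.05, and DESeq2 called 0 as well. Carm1 had 5.22 ± 5.50 CPM in contralateral (SD, n = 21), 7.29 ± 5.57 in ipsilateral (n = 21) and 4.08 ± 4.43 in equatorial embryos (n = 13), and the 3 ranges overlapped. Its log2 fold change was 0.40 ± 0.72 (SE) between contralateral and equatorial (adjusted p = 0.801) and 1.05 ± 0.79 between ipsilateral and equatorial (adjusted p = 0.512). Within plate 1, with 42 of the 55 embryos, these were 0.22 ± 0.76 and 0.55 ± 0.81, and plate 2 held only 2 equatorial embryos.

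Neat1 had 16.3 ± 18.7, 15.8 ± 16.3 and 24.3 ± 20.3 CPM after contralateral, ipsilateral and equatorial ICSI, and its log2 fold change between contralateral and equatorial was −0.61 ± 0.62 (adjusted p = 0.596). Nono had 106.1 ± 33, 99.8 ± 39.1 and 86.5 ± 33.1 CPM, a log2 fold change of 0.29 ± 0.21 between contralateral and equatorial (adjusted p = 0.412). The standard errors of Carm1 and Neat1 over the 3 comparisons ran from 0.57 to 0.79, so changes of that size or smaller were not detectable at this depth. Changes well above that size could also miss the adjusted threshold, so they are not shown to be absent. Prdm14 was counted in 7 of 21 contralateral, 5 of 21 ipsilateral and 6 of 13 equatorial embryos.

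For contralateral against equatorial embryos 6.06% of all genes tested were lower, and for ipsilateral against equatorial 3.22%. Among the other genes around the pathway, 18 paraspeckle proteins were tested, and 3 were lower in contralateral than in equatorial embryos and none higher. These were Sfpq, the partner of NONO (log2 fold change −0.77 ± 0.15, adjusted p = 0.000223), the chromatin remodeller Smarca4 (−0.70) and Rbm14 (−0.58), and the median of the list was −0.16 against 0.00 for all genes. Of 6 other arginine methyltransferases 1 was lower, Prmt6 (−0.78). Of 8 coactivators and substrates of CARM1 3 were lower, the poly(A)-binding protein gene Pabpc1 (−0.66) and the acetyltransferase genes Ep300 (−0.47) and Crebbp (−0.23), and of 4 partners of PRDM14 1 was lower, Cbfa2t2 (−0.91). Of 7 lineage factors 1 was lower, Klf4 (−0.69), while Pou5f1 (−0.31, adjusted p = 0.0980), Sox2 (−0.99, adjusted p = 0.102) and Nanog (0.04, adjusted p = 0.974) did not pass. Between ipsilateral and equatorial embryos 4 of the 18 paraspeckle proteins were lower, with Sfpq at −0.64 (adjusted p = 0.00562), as were 2 of 8 coactivators and 1 of 4 partners of PRDM14. With the depth and the number of detected genes of each embryo in the fit, Sfpq, Smarca4, Prmt6, Pabpc1, Ep300 and Cbfa2t2 stayed past the threshold in the first comparison and no listed gene did in the second.

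In blastocysts the picture of the members changed. Intact blastocysts had 328 ± 325 CPM of Neat1 (SD, n = 31), from 65.1 over a median of 210 to 1482, against 18 in 2-cell embryos, a log2 fold change of 4.48 ± 0.64 in edgeR (adjusted p = 1.29e-09). Nono had 354 ± 87.1 CPM, with a log2 fold change of 1.5 ± 0.19 (adjusted p = 4.26e-11). Of 12645 genes tested 31.5% were higher and 46.1% lower in blastocysts, and the median over all genes was −0.40, so both members rose against the bulk of genes. All blastocysts were on plate 2, so with the plate term the contrast rests on the 13 2-cell embryos of that plate, and without the term the values were 3.86 for Neat1 and 1.52 for Nono. A blastocyst holds many cells of several types, and fewer cells of a type cannot be told apart from less RNA per cell.

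Sox21 went from 6 counts in 55 2-cell embryos to 300 counts in 30 of 31 intact blastocysts, where its level was 11.9 ± 12.3 CPM, with a median of 8.37 and a highest value of 55.4. It fell below the filter on low counts for this comparison, and without that filter its log2 fold change was 5.95 ± 0.78 (adjusted p = 7.21e-11). Carm1 had 2.55 ± 3.61 CPM in intact blastocysts (median 1.20, highest 13.7) and was counted in 17 of 31, a log2 fold change of −1.30 ± 0.62 that just passed (adjusted p = 0.0485). This call was lost with RLE size factors (adjusted p = 0.0596), DESeq2 (adjusted p = 0.0553) and without the filter (adjusted p = 0.0791). With twin blastocysts in place of intact ones Carm1 pointed the other way, by 0.54 ± 0.62 (adjusted p = 0.425), while Neat1 (2.54), Nono (1.58) and Sox21 (6.38, adjusted p = 8.88e-14) kept their direction. Prdm14, with 2.03 ± 4.26 CPM in 9 of 31 intact blastocysts, had −0.79 ± 0.98 without the filter (adjusted p = 0.504).

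Since 31.5% of all genes were higher and 46.1% lower by stage, most genes of any list pass here, and the counts of the lists are read against these shares. Of 18 paraspeckle proteins 12 were higher in blastocysts and 3 lower (median log2 fold change 0.98 against −0.40 for all genes), among them Hnrnpm (1.86), Nudt21 (1.82), Ewsr1 (1.60) and Hnrnpk (1.48) as higher and Srsf10 (−1.19) as lower. The NONO partner Pspc1 rose by 1.25 (adjusted p = 0.000691), and Sfpq had 0.33 (adjusted p = 0.0634). Malat1, the nuclear noncoding RNA next to Neat1, rose by 3.52. Of 7 other arginine methyltransferases 5 were higher, such as Prmt9 (3.98) and Prmt1 (1.95), and Prmt2 (−2.97) and Prmt6 (−1.68) were lower. Of 8 coactivators and substrates of CARM1 2 were higher and 5 lower, with Pabpc1 at 1.66 and Ncoa1 at −2.58, Ncoa2 at −2.57 and Crebbp at −1.86. All 4 partners of PRDM14 were lower, namely Ezh2 (−2.93), Suz12 (−2.23), Eed (−1.86) and Cbfa2t2 (−1.39). Of the pluripotency and lineage genes, Pou5f1 was at −1.81 (0.10 with twins in place of intact blastocysts, adjusted p = 0.462), Sox2 at −1.20, Nanog at 2.56 and Cdx2 at 8.60. From the list of other Sox genes, Sox17 (5.43) and Sox7 (5.19) were higher. Sox1, Sox3, Sox14 and Sox15 were also on this list, and their values are not given here.

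**Figure D4:**
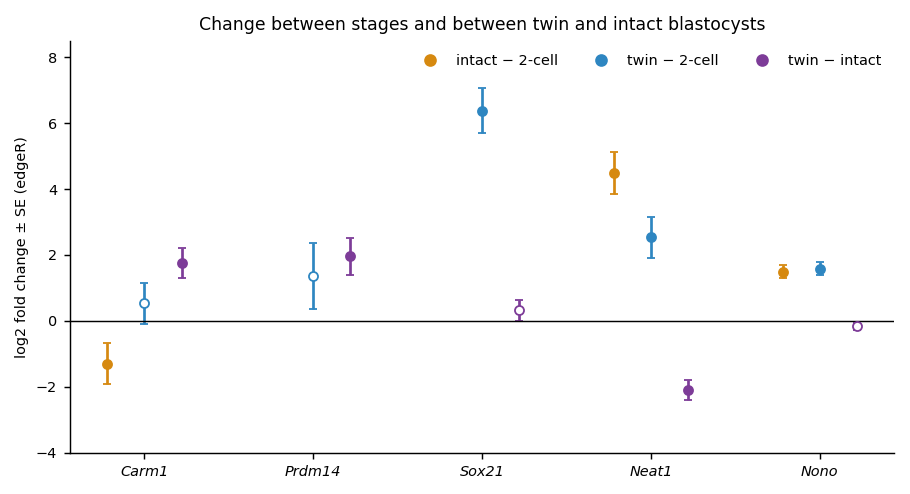
Log2 fold change of each member in edgeR with its standard error, for intact blastocysts minus 2-cell embryos (orange), twin pairs minus 2-cell embryos (blue) and twin pairs minus intact blastocysts (purple). Filled points passed an adjusted p of 0.05, and a missing point was below the filter on low counts. Neat1 and Nono rise in both kinds of blastocyst, and in twins against intact blastocysts Neat1 lies below 0 and Carm1 and Prdm14 above it.

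Twin blastocysts, which grow from a single sister, differed from intact ones in 3 of the 5 members. Carm1 had 8.79 ± 4.51 CPM in twins (SD, n = 19), from 1.54 over a median of 8.32 to 15.9, against 2.55 ± 3.61 in intact blastocysts (n = 31), and the ranges overlapped. Its log2 fold change was 1.74 ± 0.45 (adjusted p = 0.00145 in edgeR), where 20.1% of 10689 genes were higher and 20.6% lower in twins. Prdm14 had 8.32 ± 6.56 against 2.03 ± 4.26 CPM and was counted in 18 of 19 twin pairs against 9 of 31 intact blastocysts, with a log2 fold change of 1.96 ± 0.56 (adjusted p = 0.00393). Neat1 was lower in twins, with 75.3 ± 36.2 CPM (23.8 to 139) against 328 ± 325, a log2 fold change of −2.09 ± 0.30 (adjusted p = 2e-07). Sox21 (13.9 ± 5.53 against 11.9 ± 12.3 CPM, log2 fold change 0.32 ± 0.32, adjusted p = 0.454) and Nono (336 ± 46.1 against 354 ± 87.1 CPM, −0.16 ± 0.10, adjusted p = 0.227) did not pass.

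Each twin pair adds 2 libraries, and intact libraries were shallower. With the first twin of each pair alone, Carm1 was at 1.27 (adjusted p = 0.0641), and with the second alone at 1.80 (adjusted p = 0.00206). With intact libraries of 500000 counts or more alone, Carm1 was at 1.56 (adjusted p = 0.00478), Prdm14 at 1.78 (adjusted p = 0.0125) and Neat1 at −1.76 (adjusted p = 3.8e-07). The 2-cell and oocyte markers summed to 531 CPM in twins (median, 314 to 916) and to 46.8 in intact blastocysts (2.45 to 405), with Zscan4d and Zfp352 at 0 in twins, and Dppa3 was higher by 2.89. The part of these markers in the result was not tested. Malat1 was lower in twins by a similar amount to Neat1 (−1.95, adjusted p = 1.24e-15).

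Read against 20.1% of all genes higher and 20.6% lower in twins, of 18 paraspeckle proteins 1 was higher, Rbm14 (0.74), and 8 were lower, with Taf15 at −1.82 and Cpsf6 at −0.62 (median of the list −0.27 against 0.00 for all genes), while Sfpq (0.18, adjusted p = 0.177) and Pspc1 (0.39, adjusted p = 0.113) did not pass. Of 7 arginine methyltransferases Prmt7 was higher (0.65) and Prmt2 lower (−1.13), which is near these shares. Of 8 coactivators and substrates of CARM1 none was higher and 4 were lower, namely Pabpc1, Ep300, Crebbp and Smarcc1, opposite to Carm1. Of 4 partners of PRDM14, Ezh2 (0.61) and Eed (0.33) were higher with Prdm14. Pou5f1 (1.72), Cdx2 (1.46), Sox2 (0.81) and Nanog (0.73, adjusted p = 0.0234) were all higher in twins.

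Twins of a pair were compared with counting noise as the sisters were. Over all genes and pairs 27.6% of 264725 tests passed. This share covers genes of all levels, and the share of calls among genes of like level is not given here. Neat1 passed in 9 of 19 pairs, with a dispersion ratio of 17.6 against 7.18 for genes of like level, above 98.2% of them. Carm1 passed in 8 of 19 (7.71 against 5.63, above 80.6%), Prdm14 in 6 of 18 (6.31 against 5.6), Nono in 6 of 19 (6.13 against 6.83) and Sox21 in 2 of 19 (4.29 against 6.11, above 20.7%). In a contralateral pair Sox21 had 40.5 CPM in 1 twin and 4.12 in the other, and in an ipsilateral pair Carm1 had 0 and 15.5 CPM. The intraclass coefficient over the 19 pairs was 0.47 for Neat1, 0.39 for Nono, 0.22 for Prdm14, −0.02 for Sox21 and −0.25 for Carm1.

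Between ICSI sites no member passed in blastocysts. In twins 0% of the 10689 genes passed in any of the 3 site comparisons, where unadjusted p-values under 0.05 numbered 41, 66 and 62 and DESeq2 made 0 calls. These numbers lie below a share of 0.05 of the genes, the share that p-values without any difference would give. The tests were thus strict for twins, and site differences in twins are not shown to be absent. Twin and intact blastocysts shared 1 fit in both methods, and the part of this was not tested. In intact blastocysts 0.168% passed for contralateral against equatorial, 0.0187% for contralateral against ipsilateral and 0% for ipsilateral against equatorial (855 genes at an unadjusted p under 0.05, and 21 calls in DESeq2). Neat1 had 494 ± 476 CPM in contralateral (n = 11), 324 ± 190 in ipsilateral (n = 8) and 178 ± 85.1 in equatorial intact blastocysts (n = 12). Its log2 fold change between contralateral and equatorial was 1.52 ± 0.40 (adjusted p = 0.0794 in edgeR and 0.0126 in DESeq2). Of the 6 intact libraries under 500000 counts, 4 were contralateral with 482 to 1482 CPM and 2 equatorial with 104 and 112 CPM, and without them the value was 0.31 (adjusted p = 0.805).

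Sox21 went the other way in intact blastocysts, with 5.77 ± 3.93, 11 ± 6.41 and 18.2 ± 17.1 CPM after contralateral, ipsilateral and equatorial ICSI, and a log2 fold change of −1.67 ± 0.51 between contralateral and equatorial (adjusted p = 0.123 in edgeR and 0.0264 in DESeq2). In twins it had 17.8 ± 6.45, 11.9 ± 5.11 and 12.4 ± 3.21 CPM. The difference between twin and intact blastocysts in this contrast was 2.23 (adjusted p = 1), and in the 3 tests of such differences 0% of genes passed, where 290, 220 and 362 had an unadjusted p under 0.05 and DESeq2 made 0 calls. These numbers, too, lie below a share of 0.05 of the genes, so such differences are not shown to be absent. Carm1 was counted in 3 of 11 contralateral, 6 of 8 ipsilateral and 8 of 12 equatorial intact blastocysts, with 8, 21 and 34 counts in all, and a log2 fold change of −1.57 ± 0.78 between contralateral and equatorial (adjusted p = 0.381). Prdm14 was counted in 1, 4 and 4 of them (−1.54 ± 0.99, adjusted p = 0.525), and Nono had 374 ± 63.3, 392.1 ± 71.2 and 310 ± 101.2 CPM (0.30 ± 0.15, adjusted p = 0.381). Pou5f1 (−0.47), Cdx2 (−0.21), Sox2 (−0.25) and Nanog (0.13) did not pass in this comparison either.

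As Malat1 was higher or lower in the same comparisons, Neat1 was also expressed as a share of Malat1. It was 6.06% ± 6.90 in 2-cell embryos (SD, n = 55), 6.45% ± 2.82 in twins (n = 19) and 7.83% ± 6.94 in intact blastocysts (n = 31). The medians were 3.29%, 6.45% and 5.13% in the same order, and the highest 2-cell value was 39.4%. The means of the 3 groups differed by less than their spread, with a permutation p of 0.450 between twin and intact blastocysts (adjusted p = 0.675).

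**Figure D5:**
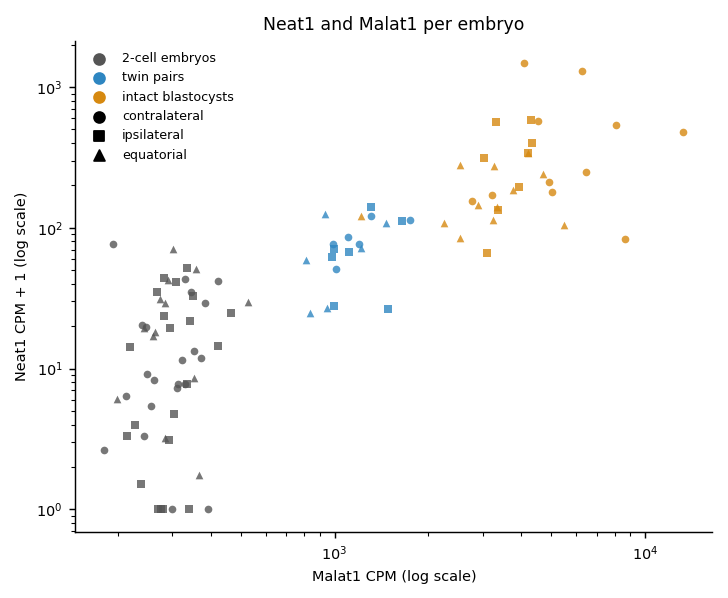
Neat1 as CPM + 1 against Malat1 in CPM for single embryos on log axes, with colours for 2-cell embryos, twin pairs and intact blastocysts and shapes for the ICSI site. Both genes are lowest in 2-cell embryos and highest in intact blastocysts, with means of 18, 75.3 and 328 CPM for Neat1 and 302, 1163 and 4400 CPM for Malat1.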

How the data were processed

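Single blastomeres and single blastocysts were sequenced as SMART-Seq cDNA with Nextera XT libraries. The authors trimmed the reads (Trimmomatic 039, with FastQC 0.12.1 named per the labels), aligned them with STAR 2.7.10b without strand to GRCm38 and deposited whole-number counts per gene and library, with identical reads counted once and without normalization. The ICSI site, pair and plate came from the labels. The members and gene lists were chosen with earlier results of these data known, and the lists follow textbook knowledge (Rbm12 was not found under that symbol, and 1 further item is not reported by name here).

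Pairs with at least 9500 detected genes in both blastomeres, and blastocysts with at least 4000, were kept, as in the study. Its mitochondrial limit was not applied, and 2% served as an alternative. CPM and TPM were computed here, with exonic lengths from the GRCm38 annotation provided. Counts of both sisters or twins were added and tested with edgeR 4.0.16 (limma 3.58.1, R 4.3.3) after filterByExpr, with TMM factors and a robust dispersion, at an adjusted p of 0.05. Sister splits used plain library sizes, and genes of like level had a mean within 1.5 times that of the member. Site and co-variation tests used 100000 resamples, and log2 ratios a pseudocount of 1 CPM. Replicates are separate embryos, and the exact tests within a pair have none. Alternatives were DESeq2 1.42.0, RLE factors, no low-count filter, no plate term, depth covariates, TMM-scaled sister splits, residuals in place of log2 ratios, plate 1 alone, rank-sum tests, other pair sets, 1 twin alone, a common depth and a pseudocount of 5. Named genes were the members, up to 6 called genes per list with the smallest adjusted p, Pou5f1, Nanog, Sox2, Cdx2, Malat1, Sfpq and Pspc1. Scripts used Python 3.11.15, scipy 1.17.1, numpy 2.4.6 and pandas 2.3.3, and were tested on simulated data.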

Additional observations from a re-analysis of the deposited data

Results flagged for a closer look

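Of 35 groups of 4 to 10 values of the members examined, 4 held a value that lay apart from the rest. The rule flags about 1 in 20 groups by chance where values are normally distributed. Absolute log2 ratios are not, so the chance rate for these groups is not known and 4 is not shown to be an excess. The absolute log2 ratio of Carm1 between twins was 4.046 in 1 of the 7 ipsilateral pairs, where the next was 1.47. In the same pair the ratio of Neat1 was 2.103, with the next at 0.638. For Sox21 the ratio was 3.018 in 1 of the 6 contralateral pairs, with the next at 1.20. For Nono, 1 of the 6 contralateral twin pairs had 247.6 CPM, and the next had 366. The first 3 are values of single pairs that enter the dispersion ratios of the twins.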

How the results depend on the processing

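Of 312 values recomputed under alternatives, 292 were graded as unchanged, which has different meanings for 2 kinds of value. A value of a single test was unchanged if it kept its direction and its side of the threshold. A number of calls was unchanged if it stayed equal or close, and neither direction nor threshold was checked for it. At a common depth the calls between sisters were 2 for Carm1, 3 for Prdm14, 11 for Neat1 and 16 for Nono, with 20.1% of all tests called, and those between twins 3 for Prdm14 (6 at full depth), 6 for Carm1 (8), 8 for Neat1 (9), 5 for Nono (6) and 2 for Sox21 (2). Members called rose from 0 to 1 without the filter for contralateral against equatorial 2-cell embryos (Sox21, 6 counts in all, adjusted p = 0.0472) and from 0 to 2 with DESeq2 in intact blastocysts (Neat1 and Sox21). With all pairs, which adds those under the minimum of detected genes, 2 site tests of the sister difference passed, both of Nono. Reversed were Neat1 for contralateral against ipsilateral embryos without a plate term (0.054) and Carm1 for the stage with twins (0.54). The Spearman correlation of Carm1 and Prdm14 passed with a pseudocount of 5 (0.37, adjusted p = 0.0327) and within plate 1 (0.40, adjusted p = 0.0485), and the Carm1 calls for stage and twins were lost as given above. The cause of these changes was not tested.

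Over all genes, 1733 calls for contralateral against equatorial 2-cell embryos became 3930 without the filter and 1104 with the mitochondrial limit. For ipsilateral against equatorial embryos, 874 became 2603 without the filter, 61 with depth covariates and 1380 with rank-sum tests, and for contralateral against ipsilateral 0 became 1577 without the filter. The 9821 calls by stage became 16044 without the filter. In intact blastocysts the calls were 18, 0 and 2 for contralateral against equatorial, ipsilateral against equatorial and contralateral against ipsilateral. They became 165, 21 and 59 with DESeq2, 0, 0 and 0 with the first twin alone and 8, 16 and 9 with libraries of at least 500000 counts, a choice made after the data were seen, as were the stage with twins and the exclusion of single embryos. The first was 6 with the second twin alone and the last 1 without the filter. Sisters and twins were paired within embryos. For site, stage and twin against intact no paired analysis was possible, because these groups hold different embryos and share no replicate numbers.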

Other observations

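Among the 31 intact blastocysts, 6 relations of log2 Neat1 with another measure were computed, with permutation p adjusted over the 6. With Malat1 Pearson's r was 0.37 (p = 0.0398, adjusted p = 0.0795) and Spearman's rho 0.40 (p = 0.0277, adjusted p = 0.166), and without the 2 embryos farthest from the median of Malat1 r was 0.30. Within sites it was 0.11 for contralateral (n = 11), 0.48 for ipsilateral (n = 8) and 0.31 for equatorial blastocysts (n = 12). With Carm1 r was −0.41 (p = 0.0221, adjusted p = 0.0795) and rho −0.34 (p = 0.0635, adjusted p = 0.190), and −0.30 without the 2 farthest. Within sites it was −0.57, −0.72 and 0.32. With the total count r was −0.33 (p = 0.0687, adjusted p = 0.103) and rho −0.16 (p = 0.376, adjusted p = 0.564), and −0.75, 0.40 and 0.29 within contralateral, ipsilateral and equatorial blastocysts. With the mitochondrial share r was −0.38 (p = 0.0354, adjusted p = 0.0795) and rho −0.19 (p = 0.301, adjusted p = 0.564), −0.20 without the 2 farthest, and −0.51, −0.28 and −0.01 within the 3 sites. With Nono r was 0.18 and rho 0.08 (adjusted p = 0.388 and 0.749), and with the number of detected genes −0.06 and 0.06 (adjusted p = 0.767 and 0.749). None of the 6 passed after adjustment. In the whole table of blastomeres, before any filter, Carm1 was counted in 76 libraries and Neat1 in 88.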
